A study of Mus musculus with 18 samples.

Results

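The CC chemokines described here were 10 genes measured in mouse lung after repeated oral dosing with a mixture of polycyclic aromatic hydrocarbons (PAHs): Ccl2, Ccl3, Ccl4, Ccl6, Ccl7, Ccl9, Ccl17, Ccl19, Ccl20 and Ccl22. They were found by matching the transcript accession printed for each array feature to RefSeq, and every feature that matched one of these genes was kept. Ccl5 was left out by the rule. The 10 genes had 12 features, of which Ccl19 had 3 and every other gene 1, out of 20660 named genes and 55681 features that were not controls. Male MutaTMMouse animals, a transgenic mutation-reporter strain, were about 12 weeks old and were gavaged on 28 consecutive days. The 5 vehicle mice received olive oil alone. The low group (4 mice), the medium group (5 mice) and the high group (4 mice) received the 4PAH mixture in olive oil. Daily doses per kg body weight were 12.5 mg for the low group, 25 mg for the medium group and 50 mg for the high group, in BaP equivalents, where BaP is benzo(a)pyrene. The other compounds of the mixture were benz(a)anthracene, benzo(b)fluoranthene and chrysene. All mice were sampled 72 hours after the last gavage, so that every group shared strain, sex, housing and the olive oil. RNA came from random sections of lung tissue, which holds epithelium, vessels and immune cells together. In such bulk tissue, fewer cells of a type and less RNA per cell cannot be told apart.

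Each array compared the lung RNA of 1 mouse, labelled with Cy5, against a universal mouse reference RNA from a pool of mouse cell lines, labelled with Cy3. Dyes were never swapped. The value used throughout is the log2 ratio of lung over reference after loess normalization, so a difference of 1 between groups is a doubling. Per array, 51.5% to 61.1% of the features were well above background in the lung channel. All 10 lung identity genes were well above background on at least 1 array, all 10 averaged lower at the high dose (median log2 difference -0.21), and none of them passed the test. The number of arrays limits the precision of every value. The 18 arrays lay on 3 slides that each carried all 4 groups. Because groups were laid out by column, column position and dose cannot be told apart.

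CC chemokines are small secreted proteins that bind receptors of the CCR family and guide leukocytes through tissue. Monocytes leave the blood under the influence of CCR2 ligands such as Ccl2 and Ccl7. Ccl6 and Ccl9 act through CCR1, Ccl17 and Ccl22 through CCR4, Ccl20 through CCR6 and Ccl19 through CCR7. In lung they are made by macrophages, lymphocytes, dendritic cells and epithelium, and several of them are textbook targets of the transcription factor NF-kappaB. PAHs bind the aryl hydrocarbon receptor (AHR), whose DNA-binding core motif is GCGTG. In RefSeq annotation of the assembly GRCm38.p6, Ccl2, Ccl7, Ccl9, Ccl6, Ccl3 and Ccl4 lie in this order on chromosome 11, with Ccl5 between Ccl7 and Ccl9. Ccl17 and Ccl22 lie on chromosome 8, Ccl19 on chromosome 4 and Ccl20 on chromosome 1.

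The promoters of the neighbouring genes Ccl6 and Ccl9 are shown because these genes had the largest average increases among the members at the high dose. Both are RefSeq sequences of GRCm38.p6 on the minus strand, from 250 bases before to 50 bases after the annotated start, at chr11:83593038-83593337 for Ccl6 and at chr11:83578587-83578886 for Ccl9. Capitals mark every run of at least 10 bases that occurs in both.
Ccl6: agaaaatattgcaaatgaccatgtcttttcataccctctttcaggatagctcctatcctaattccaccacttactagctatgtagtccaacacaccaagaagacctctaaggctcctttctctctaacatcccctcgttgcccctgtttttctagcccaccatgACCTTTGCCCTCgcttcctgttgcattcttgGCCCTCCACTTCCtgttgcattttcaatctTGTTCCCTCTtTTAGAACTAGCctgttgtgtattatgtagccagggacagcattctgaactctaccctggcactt
Ccl9: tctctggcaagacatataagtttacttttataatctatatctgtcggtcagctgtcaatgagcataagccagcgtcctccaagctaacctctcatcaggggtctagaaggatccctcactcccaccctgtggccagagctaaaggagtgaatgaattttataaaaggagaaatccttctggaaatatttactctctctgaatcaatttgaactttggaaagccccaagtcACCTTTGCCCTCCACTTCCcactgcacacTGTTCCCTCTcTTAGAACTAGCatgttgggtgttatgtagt

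The Ccl6 promoter held 4 such runs of 10 to 13 bases, and the Ccl9 promoter held 3 runs of 10 to 19 bases. Promoter sequences were at hand for 7 members, and the set of promoters used here held none for Ccl2, Ccl4 and Ccl7. Searched on both strands, the AHR core GCGTG occurred in 32.6% of the 32544 distinct promoter sequences of this length, in 4 of the 7 member promoters (Ccl17, Ccl19, Ccl20 and Ccl22), and neither in that of Ccl6 nor in that of Ccl9. An AP-1-like pattern, TGANTCA with any base at N, occurred in 7.79% of all promoters. Among the members it occurred in that of Ccl9, as TGAATCA. A kappaB-like pattern, GGG and CC separated by 5 bases, occurred in 51.0% of all promoters and in those of Ccl9, Ccl19, Ccl20 and Ccl22. The 4 matches of the kappaB-like pattern in the Ccl20 promoter overlap one another. These matches describe letters in a window and not binding.

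At the high dose Ccl6 was higher and Ccl4 was lower than in vehicle mice, and these were the 2 of the 10 members that were called. A gene was called when its adjusted p was 0.05 or less and its change was at least 1.5-fold, in a limma fit over all 4 groups with Benjamini-Hochberg adjustment over all features. By this rule 1.20% of all features were called at the high dose. No member was called at the medium dose, where 0.726% of features were, at the low dose, where 0.0898% were, or in the high dose against the low dose, where 0.0449% were. In limma's test of a linear trend over the 4 groups, called when 3 dose steps made at least 1.5-fold, 1.19% of features and the same 2 members were called. At an unadjusted p under 0.05 in limma, Ccl3, Ccl4, Ccl6 and Ccl9 of the 8 measurable members passed at the high dose, where 8755 of 55681 features did. Ccl3 and Ccl6 passed at the medium dose, where 15.3% of all features did. Ccl2, Ccl3 and Ccl4 passed at the low dose, where 8.01% of features did, and Ccl6 and Ccl9 in the high dose against the low dose, where 6.71% did.

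Of the 8 members that were measurable, 3 averaged higher and 5 lower than vehicle at the high dose, and the median of their log2 differences was -0.10, beside 0.02 over all named genes. At the medium dose 3 averaged higher and 5 lower, and at the low dose 1 averaged higher and 7 lower. Ccl20 and Ccl22 were not well above background in the lung channel on any array and get no fold change.

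**Figure D1:**
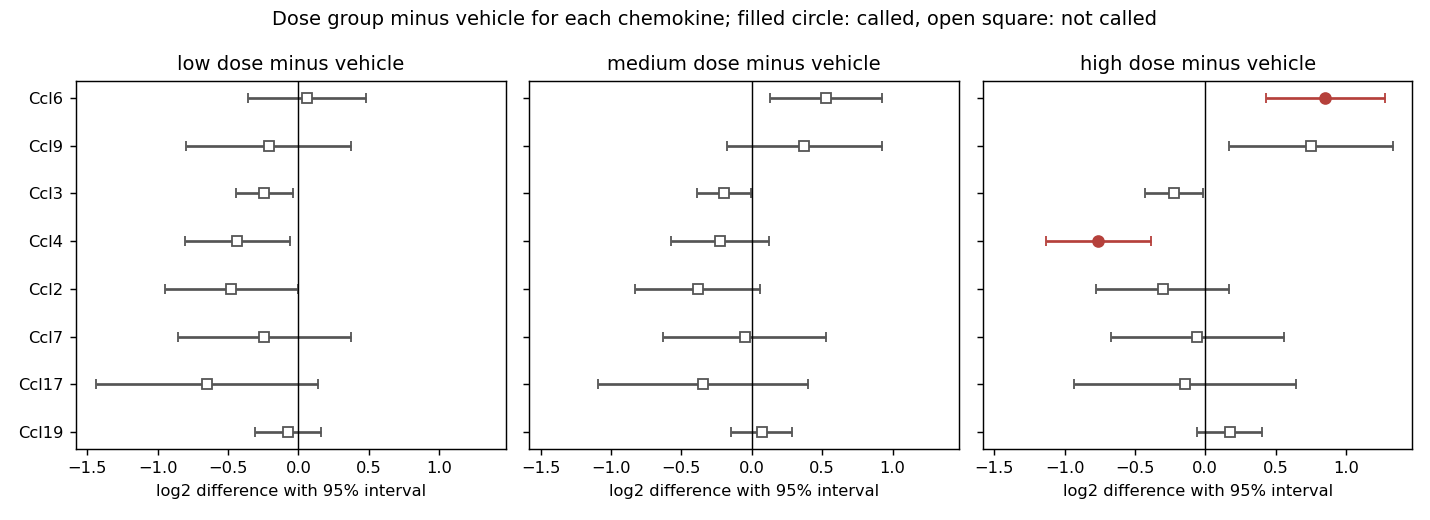
Log2 difference of each dose group from vehicle (x axis) for the 8 measurable CC chemokines (y axis), with 95% confidence intervals from limma, and a filled circle where the gene was called. At the high dose Ccl6 (0.85) and Ccl4 (-0.76) are the filled points, on opposite sides of 0, and no gene is filled at the low or medium dose.

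Ccl6 and Ccl9 are CCR1 ligands of rodents made by macrophages and other myeloid cells. Ccl6 rose at the high dose and over the dose groups, from a level already far above the reference RNA. Reference channel intensities of Ccl6 were low, from 101 to 193.5, though well above background on every array. Background was not subtracted, so the ratio includes it. Listed by mouse number, as for the other genes, the log2 ratios of Ccl6 in the vehicle mice were 6.75, 6.21, 6.42, 6.66 and 6.40, and those in the low dose mice were 6.22, 6.87, 6.66 and 6.45. The medium dose mice had 7.78, 7.08, 6.22, 6.93 and 7.08, and the high dose mice had 7.40, 7.29, 7.10 and 7.58. All 4 high dose mice stood above every vehicle mouse and every low dose mouse, while the medium group ran from among the lowest values to the highest one of all. For comparison, every high dose mouse stood above every vehicle mouse for 3.78% of features, and above every low dose mouse for 1.94%. The high dose mean was 7.34 ± 0.20 (SD, n = 4) and the vehicle mean 6.49 ± 0.22 (SD, n = 5). This difference of 0.85 on the log2 scale (95% interval 0.43 to 1.28), or 1.81-fold, had an adjusted p of 0.0174 in limma. The trend was 0.30 per dose step (limma, adjusted p 0.00657). The medium dose difference was 0.53 (limma, adjusted p 0.149) and the low dose difference 0.06 (limma, adjusted p 0.973). The high dose exceeded the low dose by 0.79 (limma, adjusted p 0.358). Without mouse 13, the medium dose mouse at 6.22, the medium dose difference was 0.73 and was called (limma, adjusted p 0.0105), and without mouse 11, at 7.78, it was 0.34 and was not (limma, adjusted p 0.375). Without mouse 16 or mouse 20 of the high group the high dose difference was 0.83 or 0.77, with adjusted p 0.0582 or 0.0588 in limma, and was not called. Within the 3 slides the difference was 0.86, 0.56 and 1.18.

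Ccl9 also averaged highest at the high dose, with more spread. Its log2 ratios were 0.23, -0.11, 1.10, 0.21 and 0.54 in the vehicle mice and -0.34, 0.19, 0.59 and 0.29 in the low dose mice. They were 1.40, 0.44, 0.16, 0.49 and 1.36 in the medium dose mice and 0.98, 0.62, 1.05 and 1.94 in the high dose mice. Every high dose mouse was above every low dose mouse, but vehicle mouse 3, at 1.10, was above 3 of the 4 high dose mice. The high dose difference was 0.75 (95% interval 0.17 to 1.33) and was not called (limma, adjusted p 0.162), and neither was the trend of 0.28 per dose step (limma, adjusted p 0.0708). Without mouse 20, at 1.94, the high dose difference was 0.49 (limma, adjusted p 0.431). With the slide as a block the trend was called (0.28, limma, adjusted p 0.0366), as it was from the lung channel alone (0.29, limma, adjusted p 0.0298), without mouse 3 (0.34, limma, adjusted p 0.029) or without mouse 13 (0.30, limma, adjusted p 0.0424). The within-slide differences at the high dose were 0.73, 0.40 and 1.39. Over the 18 mice the levels of Ccl6 and Ccl9 had a Pearson correlation of 0.75, and of 0.58 after the group means were removed. These values share arrays and reference RNA.

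Genes that mark the myeloid cells known to make Ccl6 were read beside it. Of 10 alveolar macrophage genes, 5 averaged higher and 5 lower at the high dose and none was called in any comparison. The lowest adjusted p was that of Marco, a scavenger receptor, at a log2 difference of 1.25 (limma, adjusted p 0.152). The mean of the list per mouse, relative to the vehicle mean, ran from -0.09 to 0.26 at the high dose and from -0.39 to 0.34 in vehicle mice. Of 9 neutrophil genes, 7 averaged higher at the high dose and none was called, with the lowest adjusted p for Csf3r at -0.39 (limma, adjusted p 0.113). The mean of that list per mouse ran from 0.07 to 0.49 at the high dose and from -0.47 to 0.27 in vehicle mice. Of 11 genes of monocytes and interstitial macrophages none was called at the high dose, and Plac8 was called at the medium dose (0.74, limma, adjusted p 0.0106). The part of these cells in the Ccl6 values was not tested.

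Among 13434 genes well above background on every array, those whose levels were most like those of Ccl6 over the 18 mice were Wfdc21 (Pearson r 0.92), Pira2 (0.87), Ppp2r3c (0.86), Cstf3 (0.86) and Akr1b10 (0.84), the last an aldo-keto reductase. With group means removed, these values were 0.90, 0.74, 0.76, 0.72 and 0.65.

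**Figure D2:**
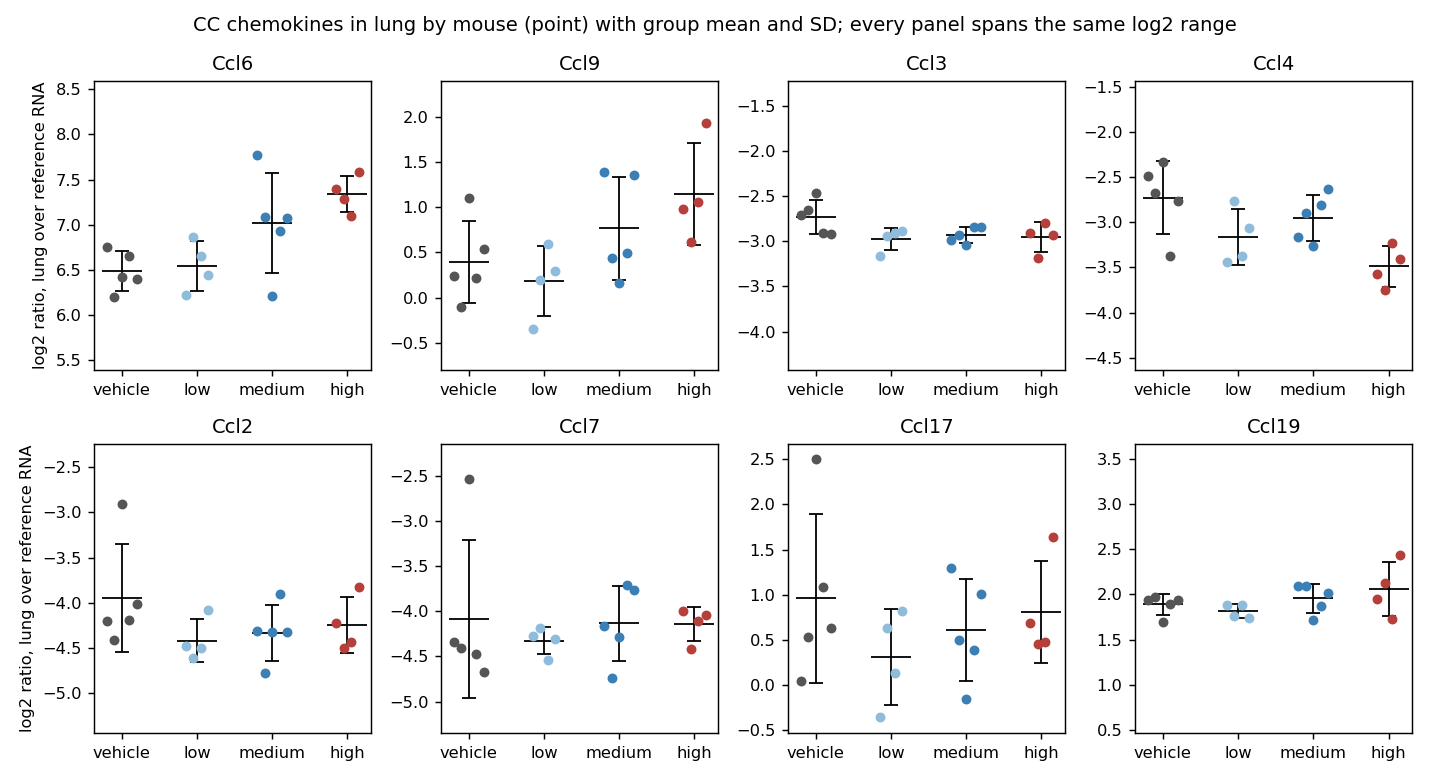
Log2 ratio of lung over reference RNA (y axis) for each of the 8 measurable CC chemokines, 1 point per mouse in the 4 dose groups (x axis), with the group mean (long bar) and SD (capped bar). The 4 high dose mice lie above all 5 vehicle mice for Ccl6, vehicle mouse 3 stands high for Ccl2, Ccl7 and Ccl17, and Ccl19 in vehicle mice stays between 1.70 and 1.98.

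Ccl3 and Ccl4, also known as MIP-1 alpha and beta, are chemokines of activated macrophages, T cells and natural killer (NK) cells. Ccl4 fell at the high dose, and Ccl3 did not pass the test at any dose. The log2 ratios of Ccl4 were -2.49, -2.67, -2.33, -3.38 and -2.77 in the vehicle mice, and -3.44, -2.77, -3.38 and -3.07 in the low dose mice. They were -3.16, -2.90, -3.26, -2.81 and -2.63 in the medium dose mice and -3.57, -3.75, -3.23 and -3.41 in the high dose mice. Mouse 4, at -3.38, lay within the range of the high dose mice, and the other vehicle mice lay above all of them. The high dose mean was -3.49 ± 0.22 (SD, n = 4) and the vehicle mean -2.73 ± 0.40 (SD, n = 5). The difference of -0.76 (95% interval -1.13 to -0.39), a ratio of 0.590 to vehicle, had an adjusted p of 0.016 in limma. Lung channel intensities of Ccl4 were low, from 165 to 359.5 in vehicle mice and from 157 to 278 at the high dose. The local background of 68 to 78.5 was not subtracted, so the ratio includes it. The trend was -0.21 per dose step (limma, adjusted p 0.0344). The low dose difference of -0.43 (limma, adjusted p 0.525) was larger than the medium dose difference of -0.23 (limma, adjusted p 0.6), so the means did not fall step by step. The high dose differed from the low dose by -0.33 (limma, adjusted p 0.816). Without mouse 16 or mouse 17 of the high group the difference was -0.73 or -0.67 and was not called (limma, adjusted p 0.0584 and 0.0721). The trend was not called when any 1 of vehicle mice 1, 2, 3 and 5, low dose mouse 7 or high dose mice 16, 17 and 20 was left out, with values from -0.22 to -0.18, nor from the lung channel alone (-0.17, limma, adjusted p 0.144). Within the 3 slides the high dose difference was -1.08, -0.37 and -0.64.

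Ccl3 ran among vehicle mice from -2.92 to -2.47. Its difference from vehicle was -0.22 at the high dose (limma, adjusted p 0.257), -0.20 at the medium dose (limma, adjusted p 0.31) and -0.24 at the low dose (limma, adjusted p 0.514). Its 95% interval at the high dose ran from -0.43 to -0.02, and the difference between the changes of Ccl3 and Ccl4 was not tested. Ccl3 and Ccl4 had a Pearson correlation of 0.76 over the 18 mice.

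NK cell genes were read beside Ccl4. All 10 genes of that list averaged lower at the high dose, with a median log2 difference of -0.48, and 2 of them were called there, Gzma, a granzyme of cytotoxic granules (-2.25, limma, adjusted p 0.00208), and Klra4, an NK receptor (-1.29, limma, adjusted p 0.00111). The mean of the list per mouse, relative to the vehicle mean, ran from -0.92 to -0.60 at the high dose and from -0.47 to 0.46 in vehicle mice. All 10 genes were well above background on at least 1 array. Among vehicle mice, the list mean was lowest in mouse 4 (-0.47), which also had the lowest Ccl4. The next lowest mean was that of mouse 3 (-0.32), which had the highest Ccl4. Of 10 T cell genes none was called in any comparison, with per-mouse means from -0.12 to 0.05 at the high dose and from -0.20 to 0.13 in vehicle mice and the lowest adjusted p for Cd4 (-0.26, limma, adjusted p 0.114). The part of NK cells in the Ccl4 values was not tested. Ccl5, a T and NK cell chemokine also on chromosome 11, is no member but was called lower at the high (-1.54), medium (-0.92) and low dose (-1.01), with adjusted p 5.28e-05, 0.00595 and 0.0307 in limma. Among 13434 genes, the levels most like those of Ccl4 were those of Dok2 (Pearson r 0.87), Ccl5 (0.86), Rwdd1 (0.85), Aif1 (0.82) and Crabp1 (0.81). With group means removed these were 0.82, 0.81, 0.77, 0.69 and 0.65.

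**Figure D3:**
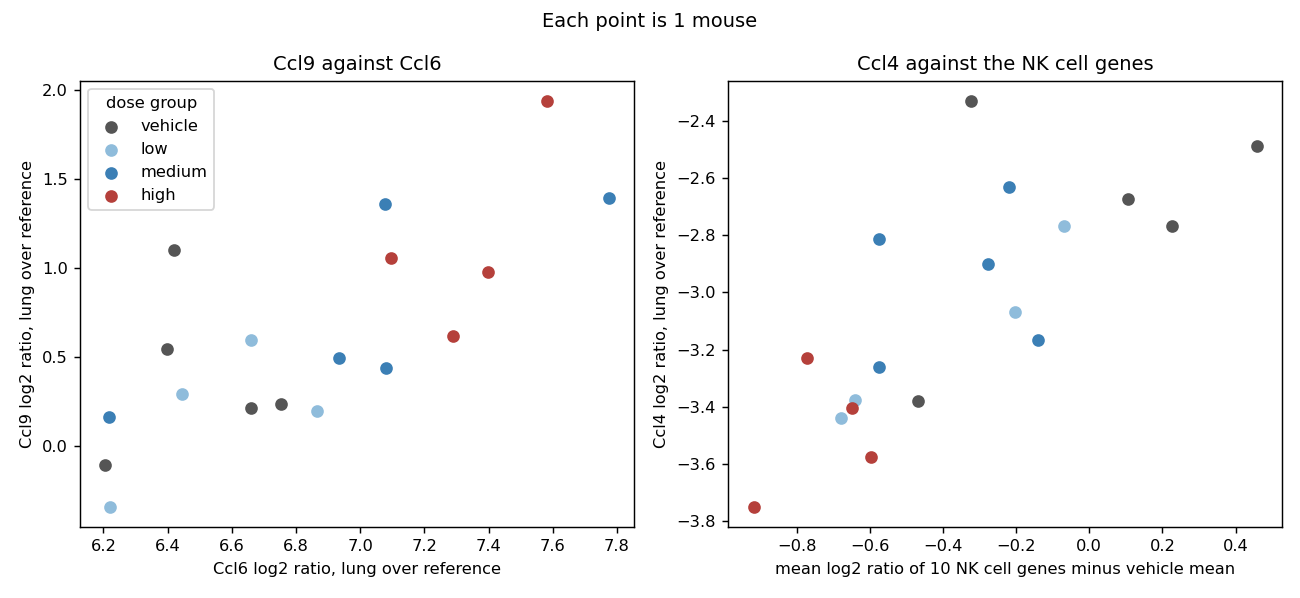
Each point is 1 of the 18 mice, coloured by dose group: left, the log2 ratio of Ccl9 (y axis) against that of Ccl6 (x axis), and right, the log2 ratio of Ccl4 (y axis) against the mean log2 ratio of 10 NK cell genes relative to the vehicle mean (x axis). The high dose mice lie at the low end of the NK cell mean, from -0.92 to -0.60. Low dose mice 6 (-0.68) and 9 (-0.64) also lie there, and vehicle mice 4 and 3 are at -0.47 and -0.32.

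Ccl2 and Ccl7, known as MCP-1 and MCP-3, are CCR2 ligands that recruit monocytes, and they were far below the reference RNA in every lung. Neither was called at any dose. Ccl2 ran from -4.41 to -2.90 in vehicle mice, from -4.61 to -4.07 at the low dose, from -4.78 to -3.90 at the medium dose and from -4.50 to -3.82 at the high dose. Its differences from vehicle were -0.48, -0.39 and -0.30 from the low to the high dose, with adjusted p 0.622, 0.425 and 0.596 in limma. The groups overlapped. Without vehicle mouse 3 these differences were -0.22, -0.12 and -0.0433 (limma, adjusted p 0.85, 0.808 and 0.953). Ccl7 ran from -4.67 to -2.53 in vehicle mice and from -4.41 to -4.00 at the high dose, a difference of -0.06 (95% interval -0.67 to 0.56, limma, adjusted p 0.962). Its difference was -0.05 at the medium dose (limma, adjusted p 0.971) and -0.24 at the low dose (limma, adjusted p 0.903). Vehicle mouse 3 held the top value of both, at -2.90 for Ccl2 and -2.53 for Ccl7, and the other vehicle mice were at most -4.01 and -4.34. Without mouse 3 the Ccl7 differences turned to 0.33, 0.34 and 0.15 at the high, medium and low dose, none of them called. Ccl2 and Ccl7 had a Pearson correlation of 0.80 over the 18 mice and of 0.84 with group means removed.

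Ccl17 and Ccl22 are CCR4 ligands, typical of dendritic cells and of type 2 immune responses. Ccl17 had the widest spread of the members among vehicle mice, from 0.05 to 2.50, where the highest was again mouse 3. It ran from 0.45 to 1.64 at the high dose. Its differences were -0.15 at the high dose (95% interval -0.94 to 0.64, limma, adjusted p 0.918), -0.35 at the medium dose (limma, adjusted p 0.743) and -0.65 at the low dose (limma, adjusted p 0.716). Without mouse 3 the high and medium dose values turned to 0.24 and 0.0377, and the low dose value was -0.27. Of 10 dendritic cell genes none was called, Xcr1 was not well above background on any array, and Flt3 had the lowest adjusted p (-0.41, limma, adjusted p 0.0215), below the 1.5-fold limit. Ccl22 had lung channel intensities from 68.5 to 86 on all arrays, against a local background of 68 to 80, and was not well above background in any group. Ccl20, a CCR6 ligand of epithelium that draws dendritic cells and lymphocytes, was likewise not well above background, at intensities from 62 to 89 against 67 to 78. Whether either changed with dose was not measurable on these arrays.

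Ccl19 is a CCR7 ligand of lymphoid stroma that draws T cells and mature dendritic cells to lymph nodes. Its brightest feature ran from 1.70 to 1.98 in vehicle mice, 1.74 to 1.88 at the low dose, 1.71 to 2.09 at the medium dose and 1.73 to 2.44 at the high dose. The differences from the low to the high dose were -0.07, 0.07 and 0.17, none of them called (limma, adjusted p 0.927, 0.852 and 0.516). The 95% interval at the high dose was -0.06 to 0.41, but with the scanner software's ratio the difference was -0.69 (limma, adjusted p 0.411). Without vehicle mouse 3 the differences were -0.12, 0.0204 and 0.12. The other features of the gene gave 0.10 and -0.11 at the high dose. The reference channel was not well above background for the brightest feature on any array, so its ratio rests on the lung channel. RefSeq lists further Ccl19 copies and pseudogenes on the same chromosome, whose transcripts these features may not tell apart. Of 7 genes of lymph node and lymphatic stroma, Lyve1, a hyaluronan receptor of lymphatic endothelium, was called higher at the high dose (1.28, limma, adjusted p 0.00515) and the medium dose (1.07, limma, adjusted p 0.0151), and Cxcl13, a B cell chemokine, was called lower at the medium dose (-0.63, limma, adjusted p 0.0224). At the high dose 3 of the 7 averaged higher and 4 lower, with a median log2 difference of -0.02. Among the lower ones, Prox1 averaged 0.41 in vehicle mice and 0.33 at the high dose, and Pdpn 0.44 and 0.23. Glycam1 was not well above background on any array. Of 8 B cell genes, Cd79b (0.70), Ms4a1 (0.70) and Fcer2a (0.81) were called higher at the medium dose (limma, adjusted p 0.0419, 0.0258 and 0.00559) and none at the high dose. All 8 averaged higher at the low and medium dose and 7 at the high dose (median log2 difference 0.49), with per-mouse means from 0.25 to 0.55 at the high dose and from -0.46 to 0.35 in vehicle mice. Of 8 genes of thymus and other nearby tissue none was called, with the lowest adjusted p for Cd1d1 (-0.34, limma, adjusted p 0.032). The part of these cells in the Ccl19 values was not tested.

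Among the other CC chemokines, CC chemokine receptors, inflammatory inducers and NF-kappaB pathway genes that were listed, Ccl5 was the 1 gene called. CXC chemokines and their receptors were not in these lists. Of the 9 other CC chemokines with a feature, 5 averaged higher and 4 lower at the high dose, and Ccl28 and Ccl1 were not well above background on any array. Of 14 CC chemokine receptors none was called in any comparison, 8 averaged higher and 6 lower at the high dose, and the lowest adjusted p was that of Ccr7, the receptor of Ccl19 (0.58, limma, adjusted p 0.105). Ccr1, Ccr4 and Ccr1l1 were not well above background on any array. Of 15 inflammatory inducers of CC chemokines none was called, with Csf1, the macrophage growth factor, at -0.46 (limma, adjusted p 0.00142) and so below the 1.5-fold limit. Of 17 NF-kappaB pathway genes none was called, 12 averaged lower at the high dose, and the lowest adjusted p was that of Bcl3, a nuclear partner of NF-kappaB (-0.50, limma, adjusted p 0.00858). Without the fold limit, 4.18% of features passed at the high dose, as did 4 of the 17 NF-kappaB genes (Bcl3, Nfkb1 and Birc3 lower, Icam1 higher) and 2 of the 15 inducers (Csf1 lower, Lta higher). The same 2 members, Ccl4 and Ccl6, passed without it. The median log2 difference was 0.03 for the receptors, 0.02 for the inducers, -0.06 for the NF-kappaB genes and 0.02 over all named genes.

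**Figure D4:**
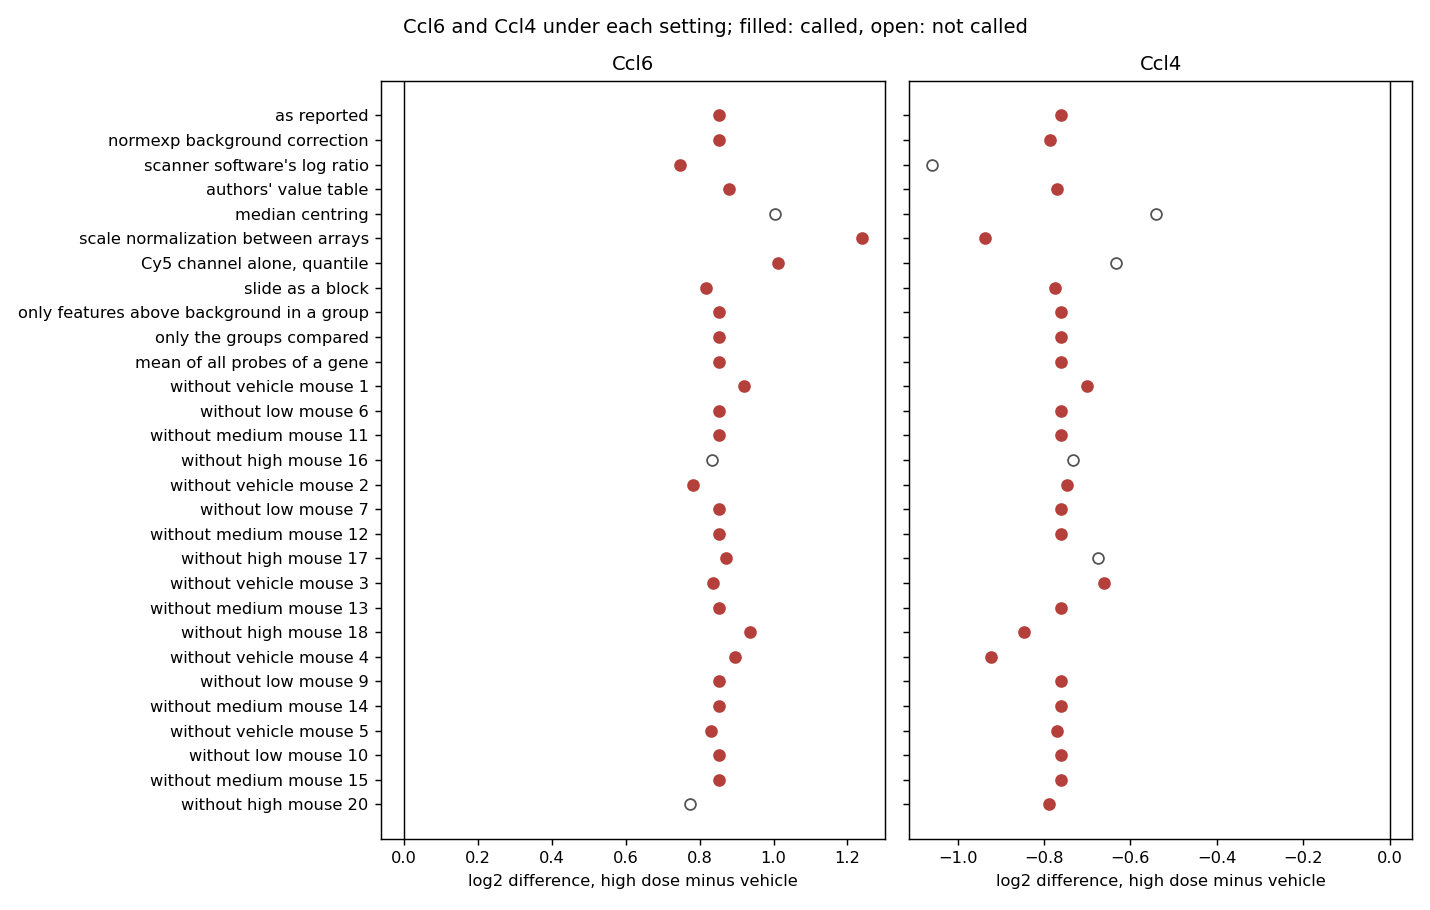
Log2 difference between high dose and vehicle mice (x axis) for Ccl6 (left) and Ccl4 (right) as reported and under each other setting or with 1 mouse left out (y axis), filled where the gene was called. Ccl6 stays between 0.75 and 1.24 and Ccl4 between -1.06 and -0.54. Both are open with median centring and without high dose mouse 16.

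How the ratio was formed bore on both calls. With each array centred on its median in place of loess, Ccl6 was at 1.00 (limma, adjusted p 0.328) and Ccl4 at -0.54 (limma, adjusted p 0.78), where 78 features in all were called at the high dose in place of 670. From the lung channel alone, Ccl6 was at 1.01 and still called, and Ccl4 was at -0.63 and not called (limma, adjusted p 0.0824). With the scanner software's ratio Ccl4 was at -1.06 and not called (limma, adjusted p 0.108).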

How the data were processed

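Lung RNA of 18 mice was hybridised to Agilent two-colour arrays against a common reference. The deposited scanner files hold median spot intensity for both dyes, per the file headers from Feature Extraction 11.0.1.1, with an array design on mm9. A value table of log2 ratios from the authors served as an alternative. It correlated with the ratios computed here at 0.9955 to 0.9982 per array, with column medians from -0.0316 to -0.0191, so its scale and direction were as here, and how it was centred is not given in the sources used here. Scanner log10 ratios deposited in the same files were turned into log2 for another alternative.

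Control spots had no weight in the loess and 215 to 307 outlier spots per array were left out. Loess within arrays was run on median intensities without background subtraction, and spots of a probe were averaged. A gene was read from its brightest probe. limma 3.58.1 in R 4.3.3 fitted the 4 groups to 55681 probes, 86 of them lacking a value on some array, with Benjamini-Hochberg adjustment. The study's own test was another one, with permutations. Figures and tables were made with Python and matplotlib. On simulated data (200 probes changed of 55595) the test recovered 97% of log2 changes of 1 and 99% of changes of 2 at the high dose, and 1.01% of its calls there were false. These shares are over the simulated probes and do not give the power for a single member. At the high dose the standard error of the measurable members ran from 0.10 to 0.38, with 0.38 for Ccl17 and 0.30 for Ccl7. A change in such a member could go uncalled.

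Mice were grouped by their titles. Nothing in the labels pairs mice across groups. P-values weigh a group difference against the spread between mice within groups, as moderated by limma. With no slide term in the main fit, that spread also holds differences between arrays and slides. The members and gene lists were chosen with earlier results of these data known. Genes named were all members, the called genes of each list or else the gene with the lowest adjusted p at the high dose, and for each called member the 5 genes with the most similar levels. The lists were other CC chemokines, CC chemokine receptors, inflammatory inducers, NF-kappaB pathway, alveolar macrophages, monocytes and interstitial macrophages, dendritic cells, neutrophils, T cells, NK cells, B cells, lymph node and lymphatic stroma, thymus and nearby tissue, and lung identity. Alternatives were normexp with an offset of 50, the scanner's and the authors' ratios, median centring, scale normalization, Cy5 alone, slide as a block, a filter keeping 29505 probes, only the groups compared, probe means, no fold limit and leaving out each mouse.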

Additional observations from a re-analysis of the deposited data

Results flagged for a closer look

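Vehicle mouse 3 stood apart from the other vehicle mice for 3 of the 8 measurable members. No other mouse did so for any of these members in its own group, and chance gives about 1 in 20 of the 32 sets of values examined. Its log2 ratio was -2.90 for Ccl2, where the others ran from -4.41 to -4.01, and -2.53 for Ccl7, where they ran from -4.67 to -4.34. It was the lowest for Ccl19, at 1.70, where the others ran from 1.90 to 1.98. The report gives the differences of these genes without this mouse.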

How the results depend on the processing

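Over 10 other settings for the high dose, 9 for the trend and 18 fits that each left out 1 mouse, neither Ccl6 nor Ccl4 changed direction at the high dose or in the trend. At the high dose 2 members were called. The count was 1 with the scanner software's ratio (Ccl6), 0 with median centring and 1 with the Cy5 channel alone (Ccl6), and it ran from 0 to 2 as single mice were left out. In the trend 2 members were called. The count was 1 with the scanner software's ratio (Ccl6), 0 with median centring, 3 with the slide as a block (Ccl9 added) and 2 with Cy5 alone (Ccl9 in place of Ccl4), and it ran from 1 to 3 as single mice were left out. At the medium dose it was 0, and from 0 to 1 with 1 mouse left out. With scale normalization 1 receptor (Ccr7) and 1 NF-kappaB gene (Icam1) were called at the high dose, with the scanner software's ratio 1 inducer (Lta), and without the fold limit 2 inducers and 4 NF-kappaB genes. With median centring Ccl5 was not called and the count of other CC chemokines was 0. For median centring the cause was not tested. Other settings for the gene lists were added after seeing the data. Of 30 printed log2 differences, 9 changed sign somewhere, none of them called. Ccl6 at the low dose was -0.11 with Cy5 alone and ran from -0.0457 to 0.1695 with 1 mouse left out. Ccl7 at the high dose was 0.0134 with the scanner software's ratio, 0.13 with median centring and 0.0064 with Cy5 alone, and ran from -0.20 to 0.33 with 1 mouse left out. Ccl7 at the medium dose was 0.0631 with median centring and ran from -0.20 to 0.34, and at the low dose it ran from -0.39 to 0.15. Ccl17 at the high dose was 0.0235 with median centring and ran from -0.42 to 0.24, and at the medium dose it ran from -0.58 to 0.0377. Ccl19 with the scanner software's ratio was -0.69 at the high and -0.21 at the medium dose, and with Cy5 alone it was 0.0495 at the low dose. No paired analysis by mouse number was possible because no number is shared between groups, and the slide was used as a block. The signal of Ccl20 and Ccl22 over background limits any statement on them.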
